A study of Mus musculus with 20 samples.

Results

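RNA loss was followed in mouse embryonic stem cells (ESCs) whose conditional Cnot3 allele had not been deleted, over 8 h of a block on transcription. The 6 libraries were taken by their titles, which name total RNA of the WT arm at 0 h, 4 h and 8 h as replicates 1 and 2, and are 6 of the 20 libraries of the series. All come from a Cnot3 conditional ESC line of C57BL/6 strain label, and nothing in the labels says how many clones were used. The WT cells carry the conditional allele undeleted and had received DMSO, the solvent. The matching 6 KO libraries come from the same kind of cells given 0.1 µM 4-hydroxytamoxifen (4OHT), which induces deletion of the allele. In both arms actinomycin D was added at 10 µg/ml on day 2 of DMSO or 4OHT, so that the drug is shared by every library at 4 h and 8 h. The series describes its 2 replicates per group as biological, without saying whether they were separate cultures of 1 clone.

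Actinomycin D binds DNA and stops RNA polymerases, so that RNA lost after that is largely not replaced. In the cytoplasm this loss usually begins with the poly(A) tail, which the PAN2-PAN3 and CCR4-NOT deadenylases shorten, and goes on with removal of the cap and digestion by the exonuclease XRN1 or by the exosome. Short sequences in the 3′ UTR set the pace of many mRNAs, because proteins and microRNAs bound there recruit CCR4-NOT. The best known are AU-rich elements, read by the tristetraprolin family, Pumilio sites, and matches to the seeds of microRNAs. Short-lived mRNAs are classically those of immediate early genes and other regulators, and long-lived mRNAs those of metabolic enzymes and ribosomal proteins.

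Examples of these sequences in short-lived mRNAs are shown because matches to them are counted in all 3′ UTRs and set against the slopes. Each line gives 25 bases of the 3′ UTR on the mRNA's strand (GRCm38, GENCODE M21, exonic), with the motif in capitals. The genes were chosen after their values were seen, from those that fell and hold the motif. The first set holds the AU-rich heptamer TATTTAT, in Fos, an immediate early AP-1 factor, Btg2, an antiproliferative protein that binds CCR4-NOT, and the pluripotency regulators Sox2 and Klf2.
Fos (chr12:85477105-85477129, plus strand): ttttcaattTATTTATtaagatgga
Btg2 (chr1:134077251-134077275, minus strand): atgaagagcTATTTATacatgtttt
Sox2 (chr3:34651824-34651848, plus strand): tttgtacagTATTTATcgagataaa
Klf2 (chr8:72320990-72321014, plus strand): acagactgcTATTTATtggacctta
The second set holds the Pumilio motif TGTANATA, where N is any base, in the signal Nodal, the general transcription factor Gtf2b, the Mediator subunit Med4, the cholesterol synthesis enzyme Sqle and the F-box protein Fbxw11. Each of these 5 UTRs held 2 such matches, of which 1 is shown.
Nodal (chr10:61424914-61424938, plus strand): ggctggggTGTATATAtatatatgt
Gtf2b (chr3:142783372-142783396, plus strand): tggaacttTGTACATAgccacacag
Med4 (chr14:73518235-73518259, plus strand): tgtttggtTGTACATAgcagccctg
Sqle (chr15:59330954-59330978, plus strand): gaagaggaTGTATATAgcatagaac
Fbxw11 (chr11:32745216-32745240, plus strand): tatccgcaTGTAGATAgagtgtaca
The last set holds AGCACTT, the complement of the seed shared by the microRNAs most typical of mouse ESCs, in the Nodal antagonist Lefty1, the kinase Wee1, which holds back mitosis, and the antiproliferative protein Btg1.
Lefty1 (chr1:180938204-180938228, plus strand): tgtatgcgaAGCACTTacatgtata
Wee1 (chr7:110142596-110142620, plus strand): ccaactgggAGCACTTtaggcatcg
Btg1 (chr10:96619136-96619160, plus strand): cttttacctAGCACTTaaaatgtat
The mature microRNAs that share this seed are given from RefSeq (GRCm38.p6), with seed bases 2 to 8 in capitals.
mmu-miR-291a-3p (chr7:3218968-3218989, plus strand): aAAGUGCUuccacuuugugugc
mmu-miR-294-3p (chr7:3220691-3220712, plus strand): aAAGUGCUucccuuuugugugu
mmu-miR-295-3p (chr7:3220815-3220837, plus strand): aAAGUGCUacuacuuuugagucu
mmu-miR-302b-3p (chr3:127545275-127545297, plus strand): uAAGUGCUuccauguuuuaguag
These 4 share bases 2 to 8 and differ mainly in their 3′ parts. A match in a UTR is a description of its letters and not a measured binding site.

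The 6 WT libraries held between 21352326 and 33262905 counts in genes. The spread between the 2 replicates of a time was 2.15 to 4.11 times the counting error, as chi-square per degree of freedom. Cnot3 stood at 107 and 109 CPM at 0 h, 108 and 106 CPM at 4 h and 110 and 108 CPM at 8 h in WT (CPM, counts relative to library size, scaled by TMM). In KO it stood at 11.4 and 11.9 CPM at 0 h, 9.02 and 11.2 CPM at 4 h and 7.36 and 6.59 CPM at 8 h. The 10 ESC markers summed to 5480 CPM in both 0 h libraries and none was under 53.7 CPM. The 8 primitive endoderm markers summed to 31.7 and 30.5 CPM at 0 h and 54.5 and 58.7 CPM at 8 h, and the 6 trophectoderm markers to 11 and 10.7 CPM and then 13.1 and 15.2 CPM. Of 8 feeder fibroblast markers, 2 were at 0 in both 0 h libraries and Col1a2, Col3a1, Lum, Dcn and Postn were under 1 CPM. Of all counts in these libraries, 0.00174% to 0.00291% were from replication-dependent histone mRNAs, which end in a stem-loop without poly(A), against 0.909% and 1.16% in the 2 WT libraries of whole-cell RNA from day 3. The sources used here do not state whether RNA was selected by its tail, so that loss of an RNA and loss of its tail cannot be told apart.

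All levels are relative to the library. No added standard is stated, so an RNA lost more slowly than the bulk gains a larger share, and a rise here is of that share. New synthesis was not measured. The slope of each gene, in log2 per hour over the 3 times, is therefore given less the median slope of all genes, which was -0.00626, and no half-life is given. Of 15823 genes tested, 6142 (38.8%) fell and 5543 (35%) rose by edgeR's quasi-likelihood test at an adjusted p under 0.05. The 2 libraries at 8 h lay outside the 2 at 0 h for 6141 of the falling and 5541 of the rising genes. The falling side reached further: the 5th and 25th percentiles of the slope were -0.362 and -0.14, and the 75th and 95th were 0.0873 and 0.159. Slopes of -0.25 or lower were called in 1908 genes. The split rests on the scaling. With library totals alone the median slope was -0.0482 and 7680 genes fell and 3742 rose, and with scaling to the ribosomal protein mRNAs it was -0.149 and 12667 fell and 259 rose. Another scaling shifts the slopes of all genes together, and slopes less their median are compared from here on. Among genes with an average log2 CPM of at least 3, 495 were under 25% of their 0 h level at 4 h, 90 of these under 10%, and 1002 were over 200% at 8 h.

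The 12 steepest falls among well-measured protein-coding and long noncoding genes included transcription factors, signals and regulators of proliferation. Klf2, a transcription factor of the naive pluripotent state, stood at 271 and 295 CPM at 0 h, 10.2 and 9.25 CPM at 4 h, and 8.57 and 7.59 CPM at 8 h. Its slope was -0.67 ± 0.11 (SE) log2 per hour (edgeR adjusted p = 0.000425), and 3.43% of the level at 0 h was left after 4 h. Lefty1 stood at 268 CPM in both libraries at 0 h, 14.1 and 11.4 CPM at 4 h, and 8.02 and 7.7 CPM at 8 h, so it went on falling (slope -0.66 ± 0.085, adjusted p = 1e-04). Nodal, the signal that Lefty1 antagonises, went from 104 and 100 CPM to 4.53 and 2.56 CPM at 4 h and 4.84 and 3.49 CPM at 8 h. For these genes the libraries at 0 h lay far above all later ones. Zfp819, Zfp599 and Zfp296, which encode C2H2 zinc finger proteins, kept 3.47%, 3.95% and 2.98% at 4 h. Dyrk3, a kinase that dissolves stress granules, kept 3.61% and the corepressor Irf2bp1 8%. The grainyhead factor Grhl3 kept 13.4% at 4 h and 3.93% at 8 h. Btg1 and Wee1 kept 5.05% and 5.51% at 4 h and 5.3% and 5.01% at 8 h, about the same at both times.

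At the other end, the 12 steepest relative rises among protein-coding and long noncoding genes included nuclear noncoding RNAs and basement membrane collagens. Small RNAs and ribosomal RNAs, some of which rose more steeply, are given further on. Malat1, a long noncoding RNA of nuclear speckles, stood at 332 and 251 CPM at 0 h, 907 and 714 CPM at 4 h and 2300 and 2090 CPM at 8 h (slope 0.37 ± 0.026, adjusted p = 6.09e-07). Meg3, an imprinted noncoding RNA, went from 57.4 and 50.7 CPM to 256 and 251 CPM at 8 h. The chains of type IV collagen rose together: Col4a1 stood at 100 and 108 CPM at 0 h and 350 and 379 CPM at 8 h, and Col4a2 at 37.3 and 40.6 CPM and then 135 and 160 CPM. Cubn, an endocytic receptor of primitive endoderm, reached 365% at 8 h and the stress protein Nupr1 344%. Lars2, a mitochondrial leucyl-tRNA synthetase, reached 591% and Gm15564, annotated as an antisense transcript on chromosome 16, 588%. The sources used here do not say how reads that match several places were counted, so single noncoding and duplicated genes are uncertain. Adad2, an adenosine deaminase domain protein, Tmem191c, a membrane protein, Gm12940, a processed transcript, and the snoRNA host Snhg11 reached 380%, 374%, 339% and 339%. All of these rises are of a share of the library. For scale, the 77 nuclear-encoded oxidative phosphorylation genes, all of which rose, reached a median of 235% at 8 h. Whether anything besides slow loss lies behind larger rises was not tested. Processed pseudogenes, whose reads can come from the parent mRNA, rose in 247 of 426 and fell in 35.

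**Figure D1:**
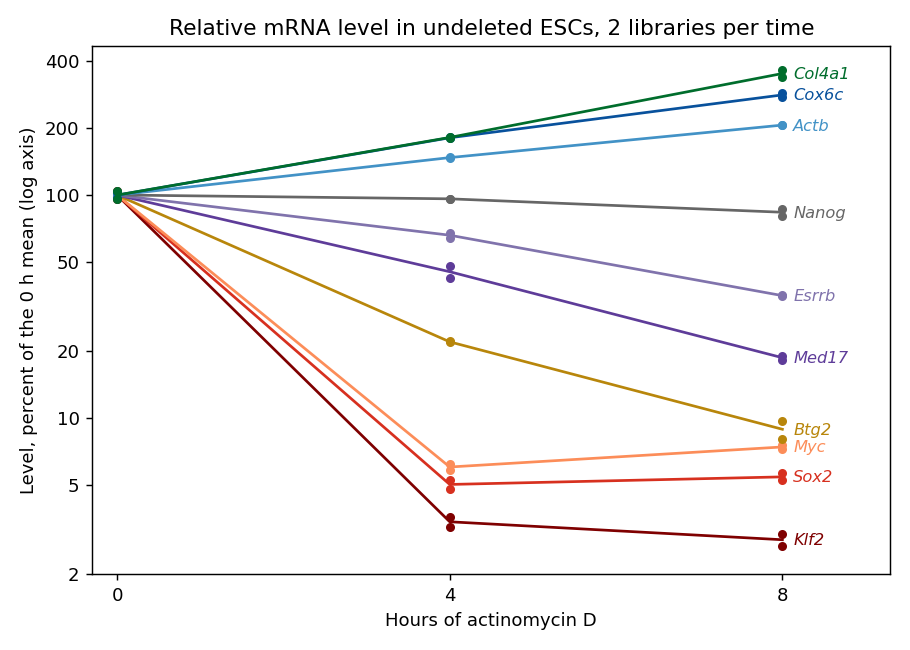
Relative level of 10 genes in undeleted ESCs as a percent of the mean at 0 h (log axis) against hours of actinomycin D; points are the 2 libraries of each time and lines join their means. Klf2, Sox2 and Myc drop to between 3.43% and 6.05% by 4 h and then flatten, Med17 and Esrrb fall at both intervals, Nanog stays near its start, and Actb, Cox6c and Col4a1 reach 206%, 281% and 350% at 8 h.

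To see which functions hold the short-lived and the long-lived RNAs, 49 gene lists were described by counts and by their median slope. More than 50% of the tested members fell in 17 lists, more than 50% rose in 18, and neither was the case in 14. The medians from the 3 libraries of replicate 1 and from those of replicate 2 differed by at most 0.078. Each count reads against 38.8% lower and 35% higher among all genes. The lists were chosen with results of these data known, and no list was tested as a set.

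**Figure D2:**
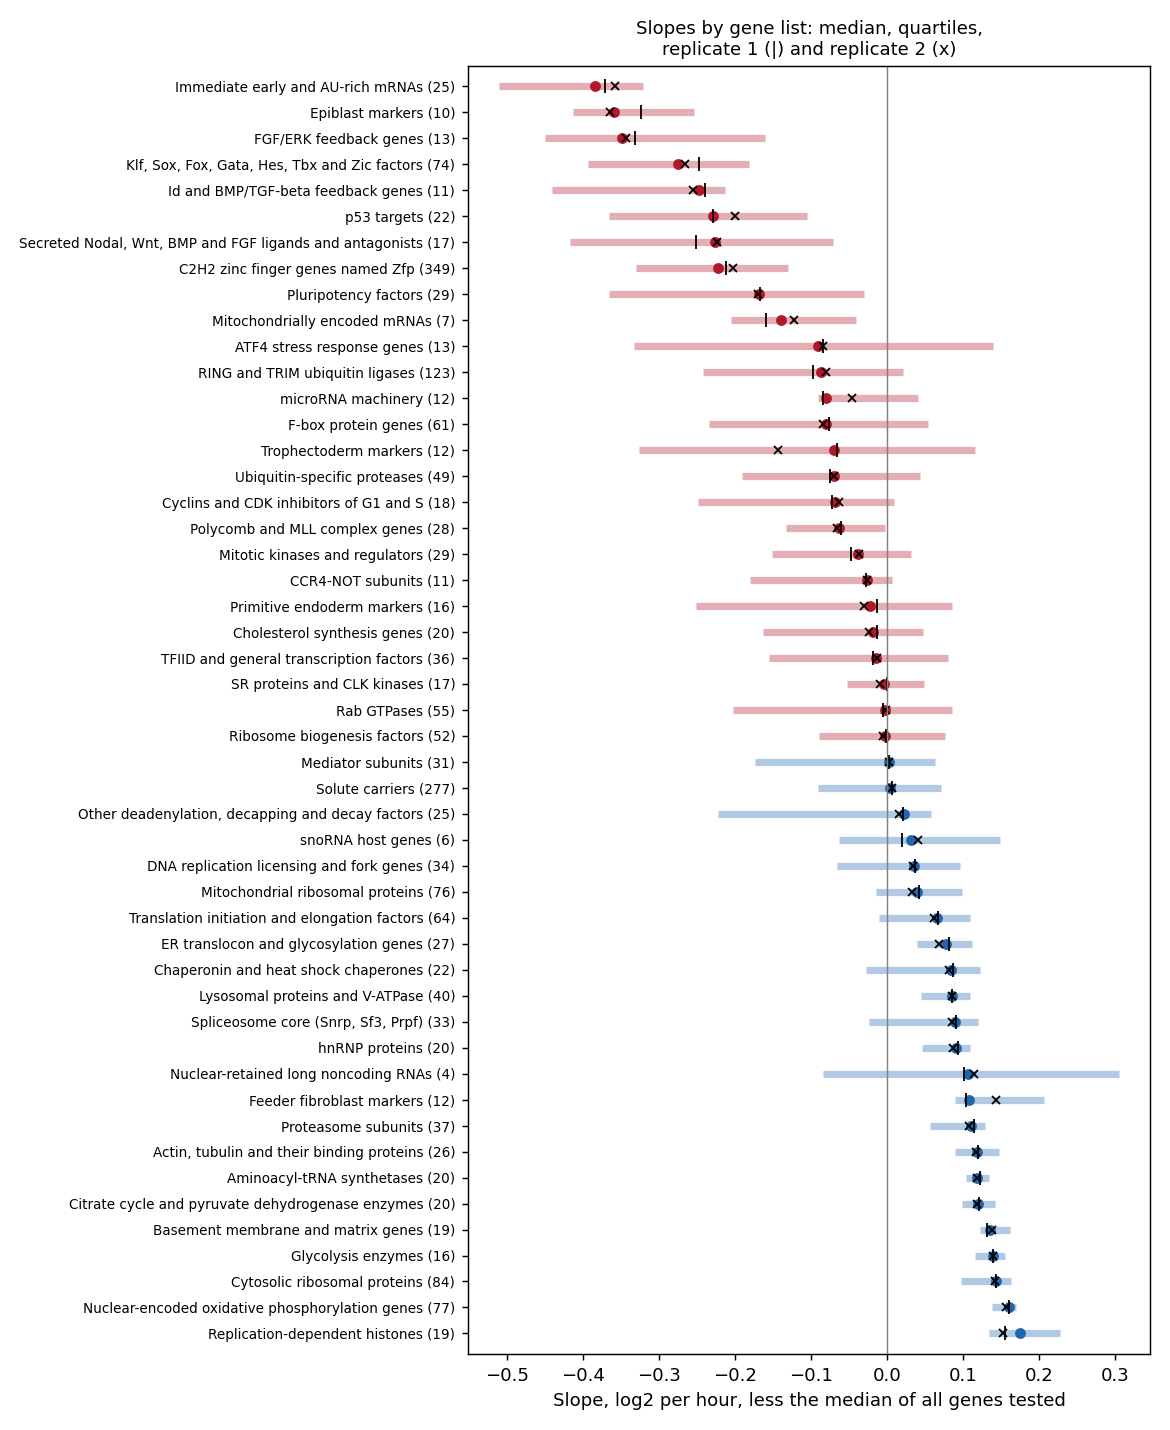
Median slope (dot) and quartiles (bar) of the tested genes of each list, in log2 per hour less the median of all genes, with the median from replicate 1 libraries (vertical tick) and replicate 2 libraries (cross); numbers in brackets are genes tested. Immediate early, epiblast and FGF/ERK feedback genes lie at -0.385, -0.359 and -0.349, and ribosomal protein and oxidative phosphorylation mRNAs at 0.143 and 0.16. The histone mRNAs, at 0.175, are 19 of 54 genes with a median of only 0.441 CPM at 0 h.

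Immediate early and other AU-rich mRNAs, the class for which rapid decay was first described, fell throughout: 25 of 25 tested, with a median slope of -0.385 and a median of 10.8% left at 4 h. Myc, the growth-promoting transcription factor, stood at 76.4 and 72.6 CPM at 0 h, 4.63 and 4.38 CPM at 4 h and 5.68 and 5.4 CPM at 8 h (slope -0.49 ± 0.1, adjusted p = 0.00175). The immediate early gene Ier2 went from 127 and 128 CPM to 13.4 and 10.7 CPM at 4 h, and was at 17.7 and 18 CPM at 8 h. Both genes were thus lowest at 4 h. Fos, at 2.37 and 2.53 CPM at 0 h, was barely measured later, with 0.145 and 0.0984 CPM at 4 h and 0.33 and 0.112 CPM at 8 h. Jun, the partner of Fos in AP-1, kept 8% at 4 h and 14.5% at 8 h. Btg2 fell more steadily, from 51.9 and 49.5 CPM to 11.1 and 11.2 CPM and then 4.1 and 4.95 CPM. The AP-1 factor Jund kept 18.8% and Zfp36l1, a tristetraprolin relative that itself binds AU-rich elements, 27.8% at 8 h.

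Feedback genes of signalling pathways fell in most cases. Of 13 FGF/ERK feedback genes, 11 fell and 1 rose (median -0.349), and 12 had already fallen by 4 h, against 36.2% of all genes lower and 35% higher in that interval. The ERK phosphatase Dusp4 kept 15.5% at 4 h and 14.1% at 8 h and the Ras-ERK inhibitor Spred1 23.4% and 14.2%. The ETS factors Etv5 and Etv4, both targets of ERK signalling, went opposite ways. Etv5 stood at 336 and 339 CPM at 0 h, 255 and 271 CPM at 4 h and 166 and 168 CPM at 8 h, while Etv4 went from 98.8 and 97.7 CPM to 161 and 150 CPM and 191 and 181 CPM. All 11 Id and BMP/TGF-beta feedback genes fell (median -0.247). Ski, a corepressor of Smad proteins, kept 24.5% at 8 h, the ubiquitin ligases Smurf1 and Smurf2, which remove Smads and receptors, 38.3% and 50.1%, and Id4, an inhibitor of bHLH factors, 11.8%. Secreted Nodal, Wnt, BMP and FGF ligands and antagonists fell in 14 of 17 and rose in 3 (median -0.226). Lefty2 kept 65% at 8 h where its neighbour in function Lefty1 kept 2.94%, and the TGF-beta family ligand Gdf3 kept 30.4%. The BMP antagonist Chrd and the Wnt antagonist Sfrp1 rose, to 245% and 154%.

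mRNAs of transcription factors mostly fell. Of 349 C2H2 zinc finger genes named Zfp that passed the filter on low counts (of 366 in the files), 295 fell and 10 rose, with a median slope of -0.222. Their loss came early: 317 were lower from 0 to 4 h, against 36.2% of all genes. Only 55 were lower and 53 higher from 4 to 8 h, against 22.9% lower and 25.1% higher of all genes. Zfp110, a zinc finger factor, kept 26.5% and Zfp638, which binds RNA in the nucleus, 36.3% at 8 h. The exceptions included Zfp692 (26.9 and 25.9 CPM at 0 h, 84.9 and 81.7 CPM at 8 h) and the RNA-binding Zfp106, at 191%. Zinc finger genes occur in near-identical copies, and how shared reads were counted bears on single members. Among Klf, Sox, Fox, Gata, Hes, Tbx and Zic factors, 74 of 108 passed the filter, of which 65 fell and 4 rose (median -0.275). Klf8, Sox13, Foxp1 and Sox15, developmental transcription factors, kept 30.3%, 28.3%, 36.2% and 16.1% at 8 h. Foxo4, a forkhead factor restrained by AKT, rose to 155%.

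Within the pluripotency network the members parted widely. Of 29 pluripotency factors, 21 fell, 6 rose and 2 passed in neither direction (median -0.169, against quartiles of -0.366 and -0.031). Sox2 stood at 696 and 691 CPM at 0 h, 36.7 and 33.3 CPM at 4 h and 39.2 and 36.5 CPM at 8 h (slope -0.53 ± 0.11, adjusted p = 0.00193). Klf4 went from 268 and 273 CPM to 19 and 18.3 CPM and 18.7 and 17.7 CPM. Pou5f1, the partner of Sox2 at many enhancers, did the reverse. It stood at 718 and 713 CPM at 0 h, 1310 and 1190 CPM at 4 h and 1820 and 1770 CPM at 8 h (slope 0.17 ± 0.011, adjusted p = 3.59e-08). Nanog lay between, at 470 and 479 CPM, 456 in both libraries at 4 h, and 411 and 383 CPM at 8 h, a small fall (slope -0.026 ± 0.0075, adjusted p = 0.00173). The slopes of Sox2 and Pou5f1 lay outside the 5th and the 95th percentile of all genes, on opposite sides. Esrrb, an orphan nuclear receptor, fell from 706 and 673 CPM to 445 and 467 CPM and 246 and 243 CPM. The Ras-like GTPase Eras and the naive state factor Tfcp2l1 kept 38.4% and 37.9%. Dppa5a, an RNA-binding protein of ESCs, and Tcl1, a cofactor of AKT, rose to 248% and 186%.

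Of 10 markers of the epiblast after implantation, mostly transcription factors, 8 fell and 2 rose (median -0.359). Foxd3, at 23.1 and 26.3 CPM, dropped to 1.78 and 1.03 CPM at 4 h and was at 3.26 and 2.59 CPM at 8 h, above both libraries at 4 h. Sall2, a spalt zinc finger factor, kept 15.1% and Lef1, the DNA-binding partner of beta-catenin, 27.2% at 8 h. The rising members were the DNA methyltransferases Dnmt3b and Dnmt3a, at 213% and 154%. In bulk RNA, fewer cells of a type and less RNA per cell cannot be told apart, which touches every marker list here. Of 16 primitive endoderm markers 7 fell and 6 rose (median -0.023), of 12 trophectoderm markers 6 fell and 4 rose (-0.07, but -0.209 without 8 h WT replicate 1), and of 12 feeder fibroblast markers 11 rose (0.108).

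Stress response genes of the p53 and ATF4 pathways differed. Of 22 p53 targets 20 fell and 1 rose (median -0.229). The autophagy regulator Trp53inp1 stood at 358 and 365 CPM at 0 h, 128 and 137 CPM at 4 h and 64.8 and 73.2 CPM at 8 h. Gtse1, a microtubule protein that holds p53 down, kept 25.1% and the RNA-binding protein Zmat3 53.1%. Bax, which permeabilises mitochondria, was the member that rose, to 172%. Among 13 ATF4 stress response genes, 6 fell and 5 rose (median -0.091). Atf4 itself went from 128 and 132 CPM to 29.7 and 30.1 CPM at 4 h and 23.9 and 23.5 CPM at 8 h. Chac1, which degrades glutathione, kept 2.46% and the pseudokinase Trib3 13.4%. Mthfd2, Psat1 and Shmt2, enzymes of serine and one-carbon metabolism, rose to 209%, 222% and 225%.

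mRNAs of the general transcription machinery fell and rose in shares near those of all genes. Of 31 Mediator subunits 14 fell (45.2%) and 11 rose (35.5%), with a median of 0.003. Med17, a subunit of the head module, stood at 116 and 118 CPM at 0 h, 56.3 and 49.8 CPM at 4 h and 22.3 and 21.4 CPM at 8 h (slope -0.3 ± 0.0088, adjusted p = 4.35e-11). Med4, of the middle module, stood at 54.8 and 57.3 CPM, 24.8 and 26.9 CPM, and 6.81 and 6.58 CPM. Med31 kept 22.8% at 8 h. In the same complex Med16, Med25 and Med30 rose to 205%, 216% and 199%. Of 36 genes of TFIID and the general transcription factors 16 fell (44.4%) and 15 rose (41.7%), with a median of -0.015. Gtf2b, which encodes TFIIB, went from 39.9 and 40.2 CPM to 17.5 and 17.6 CPM and 6.01 and 6.13 CPM. The TATA-binding protein Tbp and the TFIID scaffold Taf5 kept 29.5% and 24.2%, while Taf15 and Taf10 rose to 213% and 231%.

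Chromatin and ubiquitin genes fell more often than they rose. Of 28 Polycomb and MLL complex genes 18 fell and 5 rose (median -0.063). Jarid2, Mtf2 and Eed, all of Polycomb repressive complex 2, kept 41.9%, 36.2% and 33.7% at 8 h. Ash2l and Wdr5, shared by the MLL complexes, and the histone chaperone Rbbp4 rose to 182%, 161% and 183%. Among 123 RING and TRIM ubiquitin ligases 67 fell and 24 rose (-0.087), among 61 F-box genes 34 fell and 17 rose (-0.081), and among 49 ubiquitin-specific proteases 28 fell and 14 rose (-0.07). Fbxw11, a substrate receptor that targets beta-catenin, stood at 144 and 145 CPM at 0 h, 56 and 59.1 CPM at 4 h, and 23.8 and 24.5 CPM at 8 h. Fbxl14 kept 9.87%, the SUMO-targeted ligase Rnf4 25.6%, and the deubiquitinases Usp1 and Usp10 19.3% and 24.2%. The exceptions Fbxl6, Rnf7, a RING subunit of cullin ligases, and Usp39, which acts in the spliceosome, rose to 208%, 185% and 156%.

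Cell cycle genes were divided. Of 18 cyclins and CDK inhibitors of G1 and S 11 fell and 3 rose (median -0.069). The phosphatase Cdc25a, which activates CDKs, kept 22.6% and the CDK inhibitor Cdkn1b 24.1%, while cyclin Ccnd3 and the inhibitor Cdkn1c rose to 214% and 207%. In the list of DNA replication licensing and fork genes, 18 of 34 rose (52.9%) and 13 fell (38.2%, near the 38.8% of all genes), with a median of 0.036. Rpa1, which coats single-stranded DNA, and the ligase Lig1 rose to 188% and 187%. Orc1, of the origin recognition complex, and Mcm10, which activates the helicase, kept 26.4% and 30.4%. Of 29 mitotic kinases and regulators 17 fell and 8 rose (-0.038), and 21 fell from 4 to 8 h where 13 had fallen from 0 to 4 h. Of all genes 22.9% fell in the later and 36.2% in the earlier interval, and counts for the later one rest on the scaling. The kinases Nek2 and Aurka and the kinetochore motor Cenpe kept 29.4%, 30.8% and 31.2%, and the survivin gene Birc5 and cyclin Ccnb2 rose to 158% and 166%.

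mRNAs of the decay machinery had no common direction. Of 11 CCR4-NOT subunits 6 fell and 2 rose (median -0.027). Cnot4, the ubiquitin ligase associated with the complex, stood at 65.6 and 59.4 CPM at 0 h, 13.3 CPM in both libraries at 4 h, and 12.6 and 11.4 CPM at 8 h. The scaffold partner Cnot2, the deadenylase Cnot8 and Cnot11 kept 24.5%, 39.2% and 50.1%, and Cnot10 rose to 162%. Among 25 other deadenylation, decapping and decay factors 10 fell (40%) and 9 rose (36%), shares near those of all genes (median 0.022). The helicase Ddx6, which links CCR4-NOT to decapping, went from 366 and 350 CPM to 174 and 167 CPM at 4 h and 58.4 and 52.3 CPM at 8 h, a fall that was larger in the later interval. The decapping cofactor Edc3 and the exonuclease Xrn1 kept 28.2% and 59.1%, whereas the poly(A)-binding protein Pabpc4 and the deadenylase Pan2 rose to 239% and 197%. In the microRNA machinery 6 of 12 fell and 3 rose (-0.081). The Microprocessor subunits Dgcr8 and Drosha parted, at 60% and 165%, and the effectors Ago2 and Tnrc6b kept 62.7% and 49.1% while the exporter Xpo5 rose to 184%.

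mRNAs of splicing factors mostly rose. Of 33 spliceosome core genes 24 rose and 9 fell (median 0.089), and of 20 hnRNP genes 18 rose and 1 fell (0.091). Hnrnpa2b1 stood at 1750 CPM in both libraries at 0 h, 3140 and 2900 CPM at 4 h, and 3990 and 3940 CPM at 8 h. Hnrnpk and the Sm protein Snrpd2 rose to 185% and 273%. Prpf4, a protein of the U4/U6 particle, was an exception, going from 127 and 123 CPM to 37.2 and 38.5 CPM and 14.1 and 12.3 CPM (slope -0.4 ± 0.01, adjusted p = 2.03e-11). SR proteins and the CLK kinases that phosphorylate them were divided, with 8 of 17 lower and 7 higher (-0.004). Clk1 kept 14.7%, Clk3 41.7% and Srsf7 63.6%, while Tra2a rose to 173%.

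In ribosome production the factors that build the ribosome and the proteins in it differed. Of 52 ribosome biogenesis factors 23 fell and 22 rose (median -0.003). Mphosph10, of the small subunit processome, stood at 166 and 172 CPM at 0 h, 65 and 62.8 CPM at 4 h, and 19.7 and 19.3 CPM at 8 h (slope -0.38 ± 0.01, adjusted p = 3.05e-11). The GTPase Gnl3 kept 12.1%, the RNA methyltransferase Nop2 29.4% and the processome protein Utp15 22.5%. Nop10 and the methyltransferase Fbl, constituents of snoRNA particles, rose to 224% and 202%. Ribosomal protein mRNAs rose in 75 of 84 and fell in 3 (0.143), and their share of all counts went from 2.15% in both libraries at 0 h to 3.76% and 3.77% at 8 h. Rpl32 stood at 506 and 514 CPM at 0 h, 835 and 854 CPM at 4 h, and 1230 and 1180 CPM at 8 h. Rplp2 and Rpl39 rose to 257% and 250%. Among the exceptions, Rpl10a was at 44.9% and Rpl28 at 58.5%. Ribosomal protein genes share reads with many processed pseudogenes, and the level of a single member is uncertain for that reason. Mitochondrial ribosomal proteins rose in 42 of 76 and fell in 17 (0.039), with Mrpl13 at 222% and Mrps2 at 22.8%.

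mRNAs of energy metabolism rose nearly throughout. All 77 nuclear-encoded oxidative phosphorylation genes rose (median 0.16, from 0.059 to 0.213), reaching a median of 235% at 8 h. Cox6c, of complex IV, stood at 99.3 and 93.8 CPM at 0 h, 174 and 175 CPM at 4 h, and 278 and 265 CPM at 8 h (slope 0.19 ± 0.0093, adjusted p = 3.06e-09). Cox7b and the complex I subunit Ndufa3 rose to 251% and 270%. All 20 citrate cycle and pyruvate dehydrogenase enzymes rose (0.12), as with Sdha at 211%. Of 16 glycolysis enzymes 15 rose (0.139), among them Gapdh (195 and 203 CPM at 0 h, 459 and 502 CPM at 8 h), Eno1 at 232% and Pfkl at 238%. The member that fell was Hk2, the hexokinase induced by growth signals, from 526 and 490 CPM to 350 and 429 CPM and 238 and 244 CPM. Cholesterol synthesis genes did not share this pattern, with 10 of 20 lower and 6 higher (-0.018). Sqle, which oxidises squalene, kept 12.8%, and Lss rose to 161%.

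The mitochondrially encoded mRNAs, made by a separate polymerase inside mitochondria, differed from their nuclear partners. Of 7 tested, 4 fell and 1 rose (median -0.14). For mt-Nd1, of complex I, the level was 2190 and 2210 CPM at 0 h, 628 and 755 CPM at 4 h, and 412 and 434 CPM at 8 h. The mRNAs mt-Nd5 and mt-Cytb kept 44.4% and 37.2% at 8 h. The complex IV mRNA mt-Co1 went the other way, at 2700 and 2590 CPM, 5030 and 6330 CPM, and 5880 and 6060 CPM (adjusted p = 0.00824). Its call was lost without either 0 h library, replicate 1 or replicate 2 (adjusted p = 0.0561 and 0.0598). The 2 libraries at 4 h lie apart for these genes, with 0.741% and 0.963% of counts in mitochondrially encoded mRNAs.

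mRNAs for protein synthesis and quality control rose in most cases. Aminoacyl-tRNA synthetases rose in 20 of 20 (median 0.119), as with Dars at 206% and Mars at 201%. Of 64 translation initiation and elongation factors 42 rose and 14 fell (0.066). Eif5a stood at 1420 and 1480 CPM at 0 h and 3740 and 3630 CPM at 8 h, and Eif3i rose to 227%. Eif2ak3, the ER stress kinase PERK, fell from 58.2 and 57 CPM to 20.4 and 19.4 CPM and 6.67 and 6.8 CPM, and the initiation factors Eif1 and Eif3a kept 35.2% and 42.4%. Proteasome subunits rose in 32 of 37 and fell in 2 (0.11), with Psmd8 at 228% and Psmd7 at 62.8%. Of 22 chaperones 16 rose and 5 fell (0.084). Hsp90aa1 and the mitochondrial Hspd1 rose to 231% and 204%, while Dnajb1, the heat-inducible partner of Hsp70, went from 60.4 and 61.8 CPM to 11.4 and 11.5 CPM and 7.69 and 7.31 CPM. Hspa5, the ER chaperone BiP, kept 68.1%.

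Structural and secretory genes rose as well. Of 26 actin, tubulin and associated genes 23 rose and 1 fell (median 0.118). Actb stood at 1830 and 1750 CPM at 0 h, 2630 and 2640 CPM at 4 h, and 3690 and 3680 CPM at 8 h, and the actin-binding Cfl1 and Tmsb4x rose to 260% and 259%. All 19 basement membrane and matrix genes rose (0.136), including the laminin chain Lama1 at 240% and Sparc at 263%. These genes are also made by primitive endoderm, whose 8 markers summed to 31.7 and 30.5 CPM at 0 h and 54.5 and 58.7 CPM at 8 h, and by fibroblasts, whose 8 markers summed to 28.6 and 29.6 CPM and then 48.9 and 53.4 CPM. The part of such cells was not tested. Lysosomal and V-ATPase genes rose in 31 of 40 and fell in 4 (0.085), with Atp6v0d1 at 221%, the protease Ctsb at 187% and the membrane protein Lamp2 at 62%. Genes of the ER translocon and of glycosylation rose in 20 of 27 and fell in 4 (0.078), as with Sec61b at 255%, P4hb at 194% and Sec62 at 37.4%. Transporters and traffic proteins had no common direction. Of 277 solute carriers that passed the filter (of 365) 101 fell and 88 rose (0.004), and of 55 Rab GTPases 24 fell and 22 rose (-0.003). The glucose transporter Slc2a1 fell from 949 and 1010 CPM to 281 and 296 CPM at 8 h, and the amino acid transporter Slc7a5 rose to 197%. Rab5a and Rab5c, paralogues of early endosomes, went to 26% and 210%, and Rab9 to 19.4%.

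Noncoding RNAs were mixed. Of 135 genes of long intergenic noncoding RNAs tested 40 fell (29.6%) and 26 rose (19.3%). Of 166 antisense genes 51 fell (30.7%) and 20 rose (12%), where 38.8% of all genes fell and 35% rose. Of 4 nuclear-retained long noncoding RNAs Malat1 and Meg3 rose and Neat1 and Tug1 fell. Neat1, the scaffold of paraspeckles, went from 82.9 and 64.2 CPM to 28.4 and 27.2 CPM and was at 34.7 and 36.5 CPM at 8 h (adjusted p = 0.0446). Its call was lost when any of 8 single libraries was left out, with an adjusted p of up to 0.224 without 0 h replicate 1. Tug1 kept 60.4% at 4 h and 65.4% at 8 h (adjusted p = 0.0151), and its call was lost without 0 h replicate 1 or replicate 2 (0.0872 and 0.0716). Of 6 snoRNA host genes 2 rose over the whole course, Snhg11 and Snhg20, and all 6 rose from 4 to 8 h, where 25.1% of all genes rose. Of 77 snoRNA genes 26 fell (33.8%) and 21 rose (27.3%), with a median slope of -0.01 and no common direction. The 16 microRNA genes leaned to a fall: 10 fell (62.5%) and 5 rose (31.2%). Their median slope was -0.661, with quartiles of -1.25 and 0.176. Whether reads at microRNA genes come from mature or longer RNAs was not tested. Rn7sk, Scarna2 and mt-Rnr1, which are not ordinary polyadenylated mRNAs, rose steeply. They were picked as extremes of late minus early change and do not stand for their classes. Rn7sk, a regulator of transcription elongation, stood at 0.401 and 0.405 CPM at 0 h and 40.6 and 39.7 CPM at 8 h. Scarna2, a guide RNA of Cajal bodies, went from 0.0728 and 0.0338 CPM to 26.5 and 23.8 CPM, and the mitochondrial ribosomal RNA mt-Rnr1 from 153 and 166 CPM to 3940 CPM in both libraries. What lies behind rises of this size was not tested, and they are not to be read as slow loss alone. Of replication-dependent histones only 19 of 54 passed the filter, at a median of 0.441 CPM, and 15 of them rose (0.175).

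The 2 intervals were not alike. Of 15823 genes, 5731 (36.2%) fell and 5531 (35%) rose from 0 to 4 h, and 3621 (22.9%) fell and 3967 (25.1%) rose from 4 to 8 h. With library totals alone the counts were 6850 and 3873 for the first interval and 4989 and 2246 for the second, and with scaling to ribosomal protein mRNAs 11957 and 138, then 8696 and 232. The late change less the early change was higher in 3135 genes (19.8%), whose loss slowed or whose rise gained pace, and lower in 3837 (24.2%). These counts rest on the scaling as well, with 4533 higher and 251 lower when scaled to ribosomal protein mRNAs and 1913 higher and 11 lower when scaled to mitochondrial mRNAs. With mitochondrial scaling 354 genes fell and 321 rose from 4 to 8 h. The lower count was also 2521 with DESeq2 and 2481 with no filter. The 495 genes under 25% at 4 h were at a median of 17.3% at that time and of 14.2% at 8 h. Both 8 h libraries were below both 4 h libraries in 231 of these, above them in 130, and overlapped them in 134. These genes were picked by a low level at 4 h, which is also the start of the later interval, so this split depends in part on that choice. A relative level that stays the same is one that changes as the library as a whole does, and does not show that loss had stopped. Foxd3 had a log2 change of -4.13 and then 1.04, Myc of -4.06 and then 0.26 (adjusted p = 0.0594 for the late change), and Sox2 of -4.32 and then 0.08 (0.0866), each less the median of all genes. Jun and Ier2 rose from 4 to 8 h, by 0.82 (adjusted p = 0.0317) and 0.52 (4.83e-07). A different course was seen in genes that fell faster late. Med4 changed by -1.13 and then -1.99, Ddx6 by -1.08 and then -1.66, Gtse1 by -0.79 and then -1.25, and Sox15 by -1 and then -1.68, and each difference passed the test (adjusted p = 1.64e-06, 3.12e-07, 7.31e-06 and 0.00608). Scaled to ribosomal protein mRNAs, Med4 and Ddx6 still passed (0.00216 and 0.0168) and Gtse1 and Sox15 did not (0.236 and 0.217), and none of the 4 passed when scaled to mitochondrial mRNAs (0.515 to 1). The differences kept their sign under mitochondrial scaling. Before the median was taken off they were -0.62, -0.36, -0.26 and -0.43, against -0.83, -0.54, -0.43 and -0.65 in the fit described. In others the test did not tell the 2 intervals apart, as in Med17 (-1.15 and -1.32), Sqle (-1.49 and -1.53) and Fbxw11 (-1.34 and -1.3). Their differences did not pass (adjusted p = 0.277, 0.994 and 0.571), and values under the other scalings are not given for them.

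**Figure D3:**
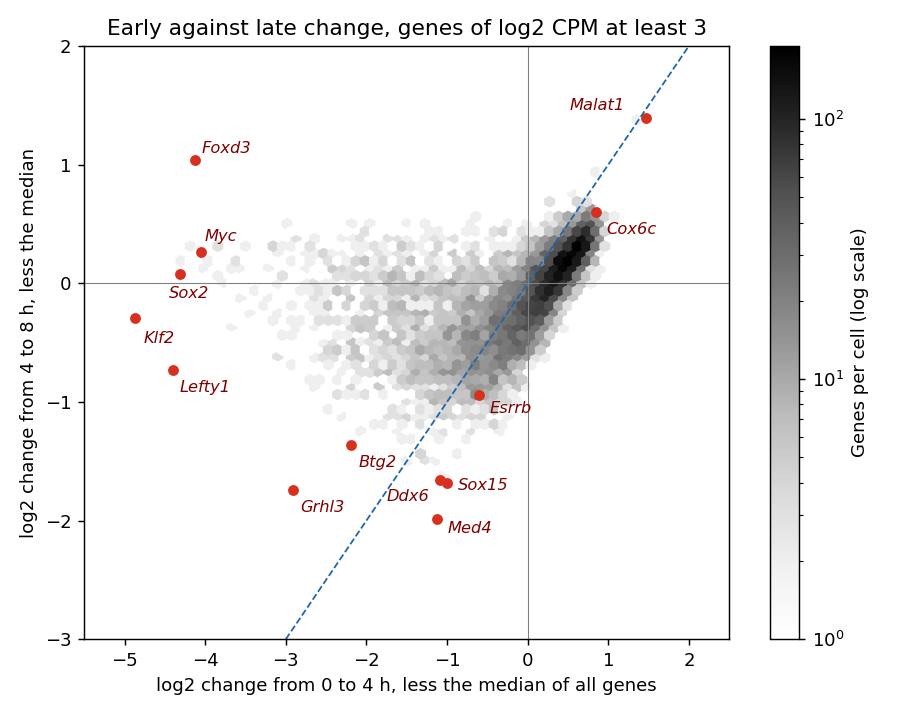
log2 change from 0 to 4 h against log2 change from 4 to 8 h, each less the median of all genes, for genes of average log2 CPM at least 3; grey shade counts genes per cell on a log scale and the dashed line marks equal change. Red points are named genes: Foxd3 (-4.13 and 1.04) and Sox2 (-4.32 and 0.08) lie far left at or above 0 on the vertical axis, while Med4 (-1.13 and -1.99) and Ddx6 lie below the dashed line.

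Sequence features differed along the range of slopes. Transcript models were found for 14196 of the 15823 genes, and relations between features and slopes are across genes, which are not independent replicates. Of 6 features, the one most closely ranked with the slope was the number of exon junctions per kilobase of coding sequence (Spearman rho = 0.473, and 0.461 with the longest 3′ UTR model of each gene). Junctions were counted over the whole transcript, UTRs included. In 5 bins of equal size, from fewest to most junctions, the median slopes were -0.192, -0.047, 0.017, 0.047 and 0.067. Genes with 0 junctions (293) had a median of -0.239, those with 1 (676) of -0.219, with 2 (845) of -0.105, and with 3 (1063) of -0.035. The Zfp and the Klf, Sox and Fox lists had few junctions per kilobase, with medians of 2.13 and 2.32 against 6.36 for all genes. Without these lists rho was 0.45 over 13780 genes. The rank correlation with 3′ UTR length was -0.281, with 5′ UTR length -0.206, with coding length -0.135, and with GC content of the 3′ UTR 0.134. Features of a gene share its base composition and length, and their parts were not told apart.

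The 3 motifs were searched on the mRNA strand of each 3′ UTR. TATTTAT was found in 26.3% of UTRs, TGTANATA in 23.2% and AGCACTT in 14.9%. Sites of TATTTAT and TGTANATA overlapped in 42 UTRs (0.296%), and of the other pairs in 1 and 2. For TATTTAT the median slope was 0.018 with no match, -0.059 with 1, -0.072 with 2 and -0.101 with 3 or more. For TGTANATA the values were 0.021, -0.067, -0.129 and -0.138, and for AGCACTT 0.01, -0.072, -0.09 and -0.08. Medians were lower with a match than without for each motif, and fell with each added match except for the last step of AGCACTT. Longer UTRs hold more of any motif and were themselves ranked with loss. Among the longest 25% of UTRs the medians without and with 1 match were -0.052 and -0.085 for TATTTAT, -0.039 and -0.079 for TGTANATA, and -0.061 and -0.085 for AGCACTT. Among the shortest 25%, where 159, 177 and 71 UTRs held 1 match, they were 0.06 and 0.018, 0.062 and -0.021, and 0.059 and -0.013. For each motif the step from no match to 1 was smaller in both groups than over all genes, and smallest in the longest UTRs of the 4 length groups. Among the 1420 genes with the lowest slopes 37.1% of UTRs held TATTTAT and 34% TGTANATA, against 9.93% and 6.34% among the 1420 with the highest. Lists followed in part. TATTTAT and TGTANATA were each in 69.2% of FGF/ERK feedback genes, against 2.38% and 9.52% of ribosomal protein genes, whose UTRs are short (median 93 bases). In immediate early and other AU-rich mRNAs they were in 68% and 40%. That list was drawn up in part for AU-rich elements, so its share with TATTTAT depends on that choice. Basement membrane genes rose in 19 of 19 although 42.1% of their UTRs held TATTTAT, and the zinc finger genes, of which 32.2% held it, were close to all genes in this share.

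**Figure D4:**
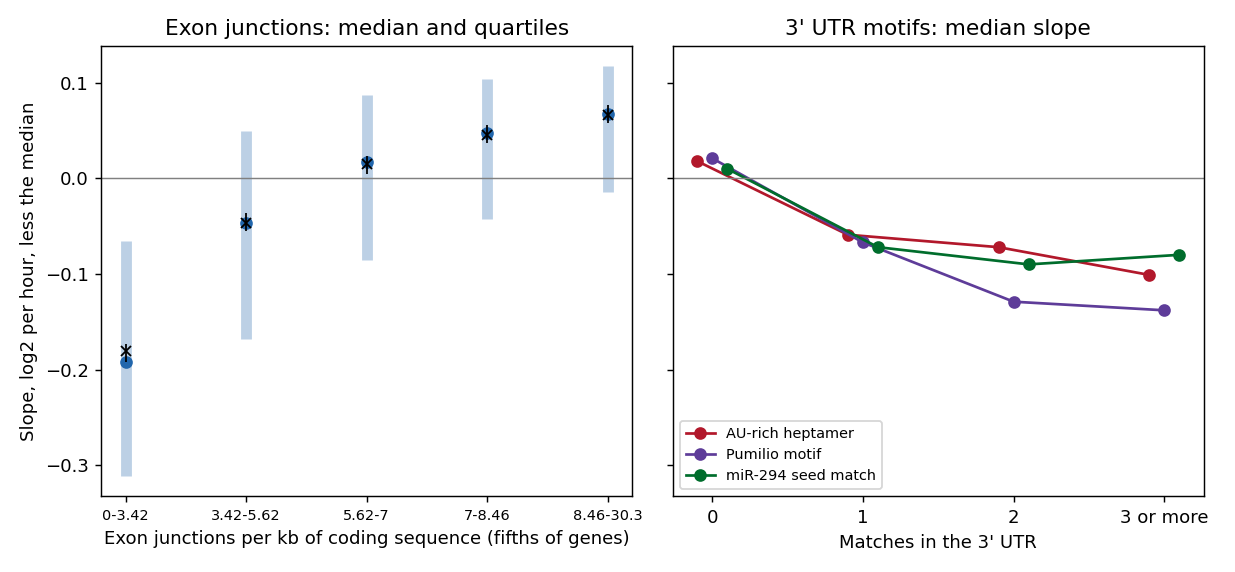
Left: median slope (dot), quartiles (bar) and medians from replicate 1 and replicate 2 libraries (ticks and crosses) in 5 equal bins of exon junctions per kilobase of coding sequence. Right: median slope by number of matches in the 3′ UTR for the AU-rich heptamer, the Pumilio motif and the miR-294 seed match; medians run from -0.192 to 0.067 on the left and fall from about 0.02 to between -0.08 and -0.138 on the right.

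Deleted cells show where the undeleted ones differ. The slope was lower in KO than in WT in 1389 genes (8.78%) and higher in 1614 (10.2%). The lower count rests on the scaling, with 556 under RLE scaling and 648 under library totals. Each arm's slope is given less that arm's own median, and their difference less the median difference, so that the values need not subtract exactly. Immediate early genes had a median of -0.385 in WT and -0.419 in KO, with 1 of 25 higher in the difference, against 10.2% of all genes. The SE of the difference takes in departure from a straight line and is wide for genes that fell early and then flattened. It was 0.144 for Myc and 0.151 for Jun, against 0.012 for Med17. The low count therefore does not show that immediate early genes differ less than other genes. Mitotic regulators had a median of -0.038 in WT and 0.02 in KO, and 19 of 29 were higher and 2 lower in the difference. Ribosome biogenesis factors had -0.003 and 0.044, with 25 of 52 higher (20 to 44 under the alternatives), and pluripotency factors -0.169 and -0.098, with 9 of 29 higher (9 to 13) and 3 lower (0 to 5). In these last 3 lists the share with a higher slope lies above that of all genes. Several long-lived lists were less far above the median in KO. Oxidative phosphorylation genes had 0.16 and 0.108, with 29 of 77 lower, and basement membrane genes 0.136 and 0.068, with 14 of 19 lower, against 8.78% of all genes. Those counts rest on the scaling, with 8 and 9 lower under RLE scaling and 0 and 1 when scaled to mitochondrial mRNAs. Scaled to ribosomal protein mRNAs, 6 oxidative phosphorylation genes were lower and 9 higher, and 11 basement membrane genes lower. Mitotic regulators had 17 to 27 higher under each scaling tried and with any 1 library left out. The mitochondrially encoded mRNAs had -0.14 and -0.289, with 3 of 7 lower, but 1 of 7 without either 0 h WT library, replicate 1 or replicate 2. It was also 1 of 7 when scaled to mitochondrial mRNAs, but that scaling uses the counts of these same mRNAs. It takes out their shared change by construction and is no test of it. In single genes, Med17 had a slope of -0.3 in WT and -0.02 in KO (difference 0.3 ± 0.012, adjusted p = 4.23e-08). Gtf2b had -0.33 and -0.06, Mphosph10 -0.38 and -0.08, and Aurka -0.21 and -0.0085, so that these mRNAs were closer to the median of all genes in deleted than in undeleted cells. Sox2, Myc and Klf4 were not among the genes whose slope differed (adjusted p = 0.763, 0.845 and 0.892), nor were Ddx6 (0.879) and Etv5 (0.914). For Sox2, Myc and Klf4, with an SE of the difference of 0.149, 0.144 and 0.118, the test leaves the difference undecided. For Etv5 the difference was 0.016 ± 0.013, small beside that of Med17. For Ddx6 the test alone does not show that the slopes are equal.

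**Figure D5:**
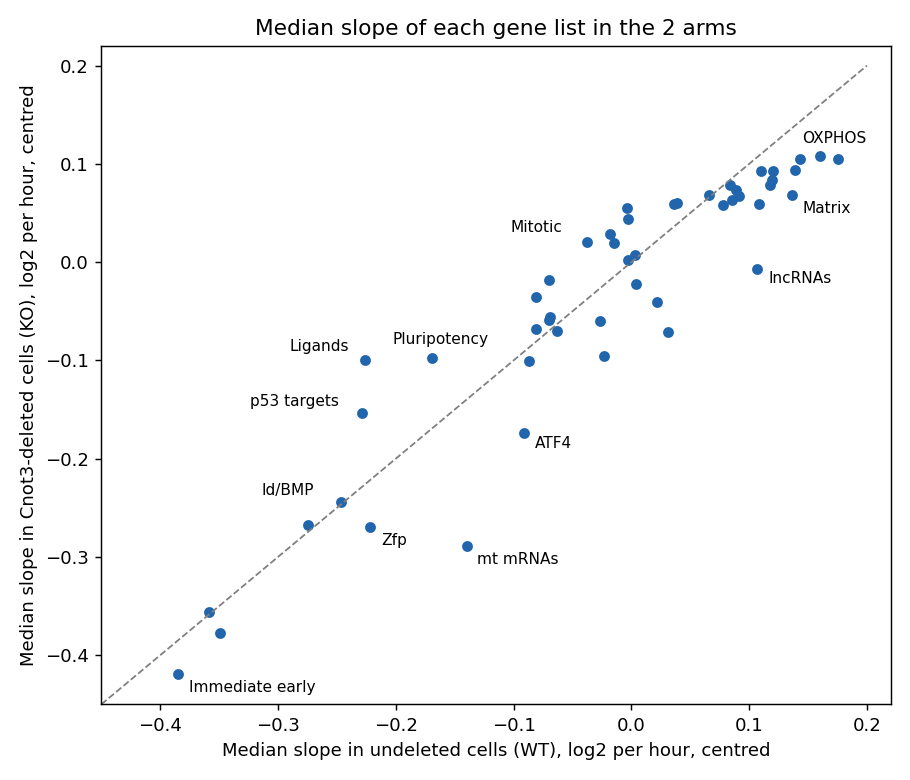
Median slope of each of 49 gene lists in undeleted (WT, horizontal) and Cnot3-deleted cells (KO, vertical), in log2 per hour less the median of all genes of that arm; the dashed line marks equal values. Pluripotency factors (-0.169 and -0.098) and secreted ligands (-0.226 and -0.1) lie above the line, and mitochondrially encoded mRNAs (-0.14 and -0.289) and matrix genes (0.136 and 0.068) below it.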

How the data were processed

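RNA sequencing counts of reads per gene, 1 deposited table per library, were used as whole numbers. The authors made these counts with STAR 2.3.0e on the mm9 genome and with HTSeq, per the submitters' processing notes. The version and strand setting of HTSeq are not stated in the sources used here. Libraries were made with an Illumina TruSeq RNA kit, per the series' design text. HTSeq's tally of reads outside genes, 5.95% to 8.12% of a WT library, belongs to no gene and stayed out of the fits.

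The 12 libraries of the actinomycin D series were fitted together in edgeR 4.0.16 (R 4.3.3, limma 3.58.1) with TMM scaling, filterByExpr at a minimum count of 10 and robust quasi-likelihood F-tests. Benjamini-Hochberg adjustment ran over all 15823 genes tested, and calls were made at 0.05. One model held a slope per arm over 0, 4 and 8 h, and another a mean per group. SE is the standard error of the fit. The tests are of uncentred values and the printed log2 values are less the median of all genes. CPM and percent of 0 h were computed from TMM-scaled counts. Intervals cover the spread between libraries. For slopes they also take in departure from a straight line over the 3 times. They are thus wide, and calls harder to reach, where an RNA fell early and then flattened. Sox2 had an SE of 0.11 log2 per hour for its slope, but of 0.05 log2 for its change from 0 to 4 h. The scripts were tested on simulated data with straight slopes.

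Members and lists were chosen with earlier results of these data known. Named genes are fixed examples (Cnot3, Myc, Fos, Jun, Ier2, Nanog, Pou5f1, Sox2, Klf4, Actb, Gapdh), the 12 lowest and 12 highest called slopes of protein-coding or long noncoding genes with an average log2 CPM of at least 3 and no overlap of 0 h and 8 h, for each list 2 to 4 called members of the smallest adjusted p and up to 3 called the other way, and the extremes of late minus early change. Members whose call was lost without 1 library were mostly left out of the text, and some genes that the rule names are not reported here.

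Of 37991 gene IDs 32919 had a symbol in GENCODE M21 (GRCm38), covering at least 99.2% of the counts of a library. That build differs from the one used for alignment, so only IDs were matched. Sequence features came from the transcript with the longest coding sequence of a gene. Figures were drawn with matplotlib 3.10.9. Alternatives were DESeq2 1.42.0, scaling by RLE, by library totals, to ribosomal protein mRNAs or to mitochondrial mRNAs, a filter of 1 CPM or none, a replicate block, the 6 WT libraries alone, each library left out, protein-coding genes alone, time as a factor, and the longest 3′ UTR.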

Additional observations from a re-analysis of the deposited data

Results flagged for a closer look

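The slope over time differed between deleted and undeleted cells, by the test of the difference, in many of the 199 genes named, with 54 lower and 56 higher in KO. Those genes were mostly picked for a small p-value or a steep slope in WT. Over all genes 8.78% were lower and 10.2% higher, and the lower count of 1389 was 556 under RLE scaling. The 6 highest differences, in log2 per hour less the median difference, were in Grhl3 (0.35), Mphosph10 (0.32), Med4 (0.3), Med17 (0.3), Gtf2b (0.29) and Gtse1 (0.24), and each passed under all 21 alternatives. The 6 lowest were in Col4a2 (-0.16), Cubn (-0.15), Col4a1 (-0.14), mt-Nd5 (-0.13), Nupr1 (-0.13) and Tug1 (-0.12). Col4a2 passed under all 21 alternatives, Cubn under 13 of 21 and Tug1 under 9 of 20. Col4a1, mt-Nd5 and Nupr1 were lost when scaled to mitochondrial mRNAs (edgeR adjusted p = 0.0856, 0.151 and 0.271) and passed under the other 20. Because mt-Nd5 is among the mRNAs scaled to, that scaling is no test of its difference. Col4a2 rose at 0.25 in WT and 0.07 in KO, and mt-Nd5 fell at -0.14 and -0.29.

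Reads outside annotated genes made up 8.1% and 8.12% of the WT libraries at 8 h, against 7.22% and 6.7% at 0 h and 5.95% and 5.97% at 4 h. These reads enter no comparison, and they were at 5.32% and 5.26% in the KO libraries at 8 h.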

How the results depend on the processing

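Counts of called genes depended most on the scaling, whose cause was not tested. Scaled to ribosomal protein mRNAs, 12667 genes fell and 259 rose over the course, 11957 and 138 from 0 to 4 h, and 8696 and 232 from 4 to 8 h, the late minus early change was lower in 251, and the KO minus WT slope was lower in 261 and higher in 3666. Scaled to mitochondrial mRNAs, 2006 rose from 0 to 4 h, 354 fell and 321 rose from 4 to 8 h, the late minus early change was lower in 11 and higher in 1913, and the KO minus WT slope was lower in 9. Library totals gave 2246 higher from 4 to 8 h and 648 with a lower KO minus WT slope. That last count, 1389 in the fit described, was 556 with RLE scaling, 816 with DESeq2 and 861 with the replicate block. Leaving out 1 library gave 560 to 1814, with over 1.5 times fewer without 0 h KO replicate 1 (748), 0 h WT replicate 1 or 2 (673 and 582), 8 h KO replicate 1 or 2 (560 and 593) or 8 h WT replicate 1 (845). Oxidative phosphorylation genes with a lower KO slope numbered 8 with RLE scaling and 9 to 43 with 1 library left out (9 without 0 h WT replicate 2 or either 8 h KO library, 11 without 0 h WT replicate 1, 17 without 0 h KO replicate 1 and 18 without 8 h WT replicate 1), and those of basement membrane genes 9 to 17. Late minus early change was lower in 2481 genes with no filter and in 2521 with DESeq2. WT slopes with 1 library left out gave 5567 to 6252 lower and 4888 to 5661 higher.

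Replicate numbers were not shown to pair the libraries: the deviations of same-numbered libraries from their group means correlated at 0.03, 0.07 and 0.11 across genes. The replicate block gave 5943 lower and 5379 higher slopes. Of the 199 genes named, 60 lost the call on their slope when scaled to ribosomal protein mRNAs, 2 when scaled to mitochondrial mRNAs, and 1 each with the block, no filter and the WT libraries alone. Losses with 1 library left out are not counted, since genes that lost their call that way were mostly left out of the text. The medians of 5 of 49 lists, all within 0.004 of 0 in the fit described, changed sign, and those of 14 moved by over 0.02. The largest moves were from 0.031 to 0.228 in snoRNA host genes with protein-coding genes alone, and from -0.07 to -0.209 in trophectoderm markers without 8 h WT replicate 1. With 1 library left out, the other of its group is assumed to vary like the other groups. Low depth limits genes such as Fos and the histones.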
